A study of Mus musculus with 4 samples.

Results

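The proteasome subunit genes were taken as the probe sets whose single gene symbol in the platform annotation starts with Psma, Psmb, Psmc or Psmd and a digit. The rule found 68 probe sets of 39 genes. The array has 22626 probe sets other than controls, and the 20380 with 1 symbol belong to 12393 genes. One of them, Psmc3ip, encodes a meiotic recombination factor and is no proteasome subunit. It read at or below 46.5 on all 4 arrays and is left out of the counts, which leaves 67 probe sets of 38 genes.

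The samples were mouse bone marrow-derived mast cells, from the marrow of mice aged 8 to 12 weeks, cultured in interleukin-3 (5 ng/ml) over 4 to 6 weeks. They were either Pac1-/-, deficient in the MAP kinase phosphatase PAC1 (gene Dusp2), or wild-type (Pac1+/+). All cultures of both genotypes were loaded with 100 ng/ml IgE against dinitrophenyl for 18 h and activated through the IgE receptor FceRI with 20 ng/ml DNP-HSA for 2 h. Each genotype had 2 cultures, numbered replicates 1 and 2, with 1 Affymetrix mouse 430A array each, and no unstimulated culture was analysed here.

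The proteasome degrades proteins tagged with ubiquitin. Its core particle is a barrel of 2 outer rings of alpha subunits, which gate the entry, around 2 inner rings of beta subunits, 3 of which carry the protease sites. The regulatory particle at its end binds the ubiquitin chain, removes it and unfolds the substrate with a ring of ATPases. Interferon and inflammatory signals induce 3 other beta subunits, which take the place of the constitutive catalytic ones and form the immunoproteasome, whose peptides are loaded on MHC class I.

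The 11 mast cell markers summed to deposited intensities of 49081 and 56225 in Pac1-/- cells, against 44723 and 48157 in wild-type cells, and 9 and 10 of them reached 100 in Pac1-/- cells, against 10 and 11. Ms4a2, a chain of the IgE receptor, was the marker that split most by replicate number, at 42.2 and 1760 in Pac1-/- cells, against 149.8 and 3053 in wild-type cells. The replicate number separated the arrays more than the genotype did, taking 71.9% of the sum of squares of the 7770 tested probe sets, while the genotype took 17.9%. The Pac1-/- replicate 2 array stood apart, with a median deposited intensity of 24.5 against 40.6 on Pac1-/- replicate 1, and 49.3 and 48.0 on the wild-type arrays. The GAPDH 3′ to 5′ ratio was 1.36 and 191 in Pac1-/- cells, against 0.798 and 0.839 in wild-type cells. The beta-actin ratio was 293 and 54.8 in Pac1-/- cells, against 109 and 1.58 in wild-type cells. Markers of macrophages and monocytes summed to 5409 and 479 in Pac1-/- cells, against 6892 and 589 in wild-type cells, with 1 gene, Cd68, holding most of the replicate 1 sums. At most 3 of these 7 markers reached 100 on any array, and Cd163 and Marco read at most 11.4. Dendritic cell markers summed to 1812 and 184 in Pac1-/- cells, against 2141 and 262 in wild-type cells. Of these, Flt3 read 1408 and 37.8 in Pac1-/- cells, against 1822 and 42.9 in wild-type cells. Stromal markers summed to 70.2 and 4110 in Pac1-/- cells, against 295.0 and 2726 in wild-type cells. Of these, Vim read 33.2 and 4028 in Pac1-/- cells, against 144.6 and 2614.5 in wild-type cells. Col1a1, Col1a2, Col3a1 and Dcn read at most 72.6. The sums of all 3 lists thus differed by replicate number mostly through 1 gene each. Markers of erythroid cells and megakaryocytes summed to 1759 and 531.5 in Pac1-/- cells, against 1990 and 3052 in wild-type cells. Itga2b held most of these sums, and Hba-a1, Klf1 and Pf4 read at most 47.1. Markers of neutrophils, of basophils and eosinophils, and of lymphocytes summed to at most 347 on any array. Per the labels' protocols over 98% of the cultured cells carried Kit and FceRI. The part of RNA quality and of other cells in the results was not tested, and fewer cells of a type cannot be told apart from less RNA per cell. The Dusp2 probe set read 109 and 75.5 in Pac1-/- cells, against 167 and 90.7 in wild-type cells. No source used here places these probes relative to the deletion, so they do not check the genotype labels.

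Intensities below are the authors' linear values after quantile normalisation of the 4 arrays. Log2 differences are Pac1-/- minus wild-type, n = 2 cultures per genotype throughout, with values below 16 set to 16. Each gene is represented by its brightest probe set. Of the 38 genes, 36 had a mean intensity of at least 100 and were tested. Psmd7, a lid subunit, read 0.750 and 27.0 in Pac1-/- cells, against 6.97 and 111 in wild-type cells, and Psma8, the germ cell form of an alpha subunit, read 16.6 and 32.4 in Pac1-/- cells, against 3.17 and 0.900 in wild-type cells. These 2 were too dim to test. The 2 dimmest tested genes were Psmd9 and Psmd10, base assembly chaperones with means of 114 and 116, and the brightest untested probe set of a subunit, another one for Psma6, had a mean of 83.8.

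No subunit passed the limma test once p-values were adjusted (Benjamini-Hochberg), and neither did any other probe set. Of 49 tested proteasome probe sets 0 had an adjusted p under 0.05, as had 0% of the 7770, the lowest of the adjusted values being 0.866. Before adjustment 2 proteasome probe sets were under 0.05, both lower in Pac1-/- cells, against 3.38% of all probe sets (2.25% higher and 1.13% lower). These were 1 for the lid subunit Psmd8 and a dimmer one for the lid subunit Psmd11. With 2 arrays per genotype the smallest p that exact permutation allows is 0.3333. Of the unadjusted calls over all probe sets 66.5% were higher in Pac1-/- cells, against 54.2% on the values as deposited and 93.0% with each array centred on its median.

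**Figure D1:**
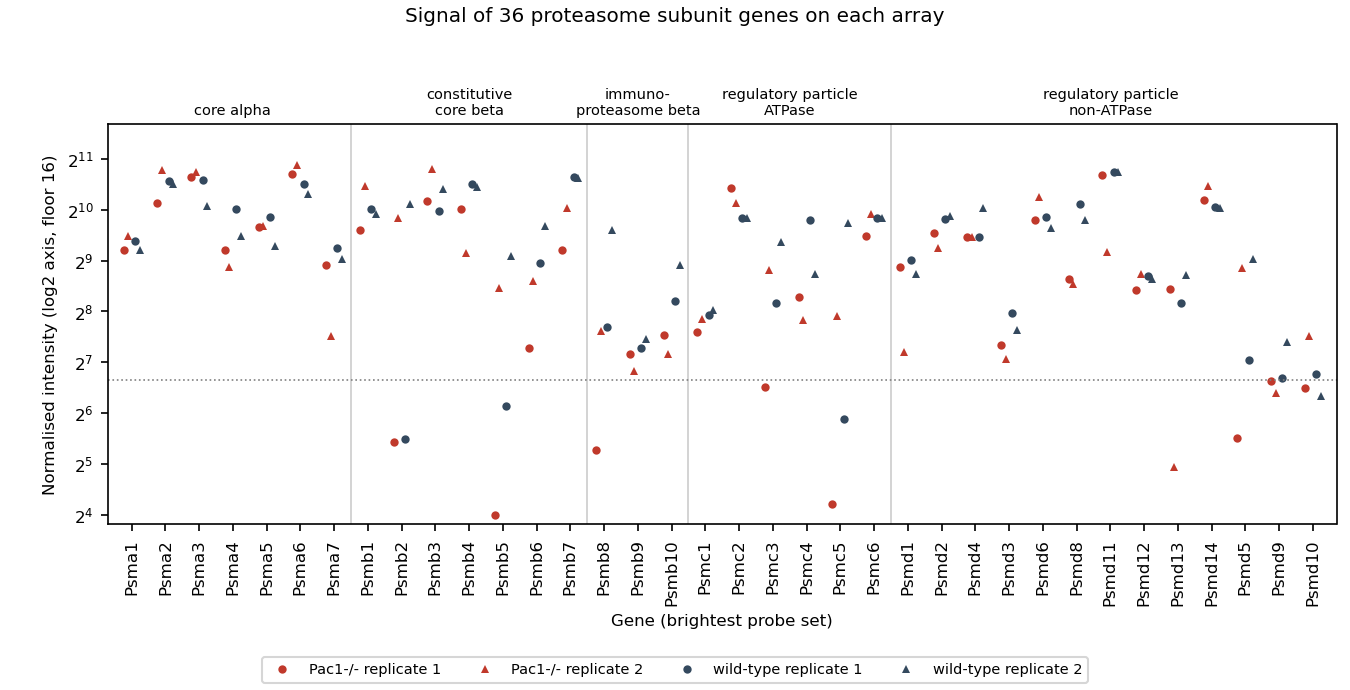
Normalised intensity on a log2 axis (values below 16 drawn at 16) of the 36 tested proteasome subunit genes, by their brightest probe set, on the 2 Pac1-/- arrays (red) and 2 wild-type arrays (dark blue). Circles are replicate 1 and triangles replicate 2, and the dotted line is at 100. The core alpha genes are at or above 183 on all arrays, while Psmb2, Psmb5, Psmc5 and Psmd5 are low on both replicate 1 arrays.

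The signal of the 6 catalytic beta subunits was lower in Pac1-/- cells than in wild-type cells within both replicate numbers. That was the case for 23.6% of all 4998 tested genes. With each array centred on its median it held for 3 of the 6, against 9.21% of all tested genes. The largest difference was that of Psmb8 and the smallest that of Psmb9, both immunoproteasome subunits. For 5 of the 6 genes the genotypes did not overlap, against 11.4% of all tested genes on that side; Psmb5 was the exception. None of these differences passed the adjusted test, and all 6 confidence intervals include 0 in this fit, which has no term for the replicate number.

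Psmb8 replaces Psmb5 at the chymotrypsin-like site of the immunoproteasome. It read 38.5 and 197 in Pac1-/- cells, against 207 and 776 in wild-type cells. Both Pac1-/- values lay below both wild-type values, and the replicate 2 array was the higher one in either genotype. The log2 difference was -2.20 ± 1.16 (SE) (95% confidence interval -5.54 to 1.13; limma adjusted p = 0.866), with -2.43 within replicate 1 and -1.98 within replicate 2. Psmb10, which replaces the trypsin-like subunit Psmb7, read 186 and 144 in Pac1-/- cells, against 297 and 485 in wild-type cells. The genotypes did not overlap, and the log2 difference was -1.21 ± 0.45 (SE) (95% confidence interval -2.50 to 0.075; limma adjusted p = 0.866). Psmb9, which replaces the caspase-like subunit Psmb6, was close to even, at 143 and 114 in Pac1-/- cells, against 156 and 175 in wild-type cells. Its log2 difference was -0.37 ± 0.37 (SE) (95% confidence interval -1.42 to 0.68; limma adjusted p = 0.878), which became 0.055 with median centring. Psmb11, the thymus form, is not among the probe sets found. The median over the 3 immunoproteasome genes was -1.21, against 0.11 over all tested genes, with -0.67 within replicate 1 and -1.75 within replicate 2. With median centring it was -0.66, where all probe sets had a median of 0.69.

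Their constitutive counterparts were lower too. Psmb7 read 589 and 1051 in Pac1-/- cells, against 1616 and 1592 in wild-type cells. The wild-type arrays were nearly equal and both Pac1-/- arrays lay below them, with a log2 difference of -1.03 ± 0.46 (SE) (95% confidence interval -2.34 to 0.29; limma adjusted p = 0.866). Psmb6 read 156 and 388 in Pac1-/- cells, against 496 and 822 in wild-type cells. Its genotypes did not overlap either, and the log2 difference was -1.38 ± 0.65 (SE) (95% confidence interval -3.23 to 0.48; limma adjusted p = 0.866). Psmb5 read 1.95 and 350.5 in Pac1-/- cells, against 70.7 and 547 in wild-type cells. The replicate 1 arrays were low in both genotypes and the genotypes overlapped. Its log2 difference of -1.39 ± 1.99 (SE) (95% confidence interval -7.10 to 4.31; limma adjusted p = 0.911) uses the floor of 16, which stands in for the Pac1-/- replicate 1 value. Without Pac1-/- replicate 1 it was 0.83, and without wild-type replicate 2 it was 0.082. In those fits the lone array is set against both replicate numbers. Taken relative to the median over all probe sets, the 6 genes lay between -2.26 and -0.43 as reported. The ranges were -2.30 to -0.61 on the deposited values and -2.33 to -0.63 with median centring. Centring multiplies each deposited array by a constant, so these ranges are alike by construction and are no separate check of the scaling.

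**Figure D2:**
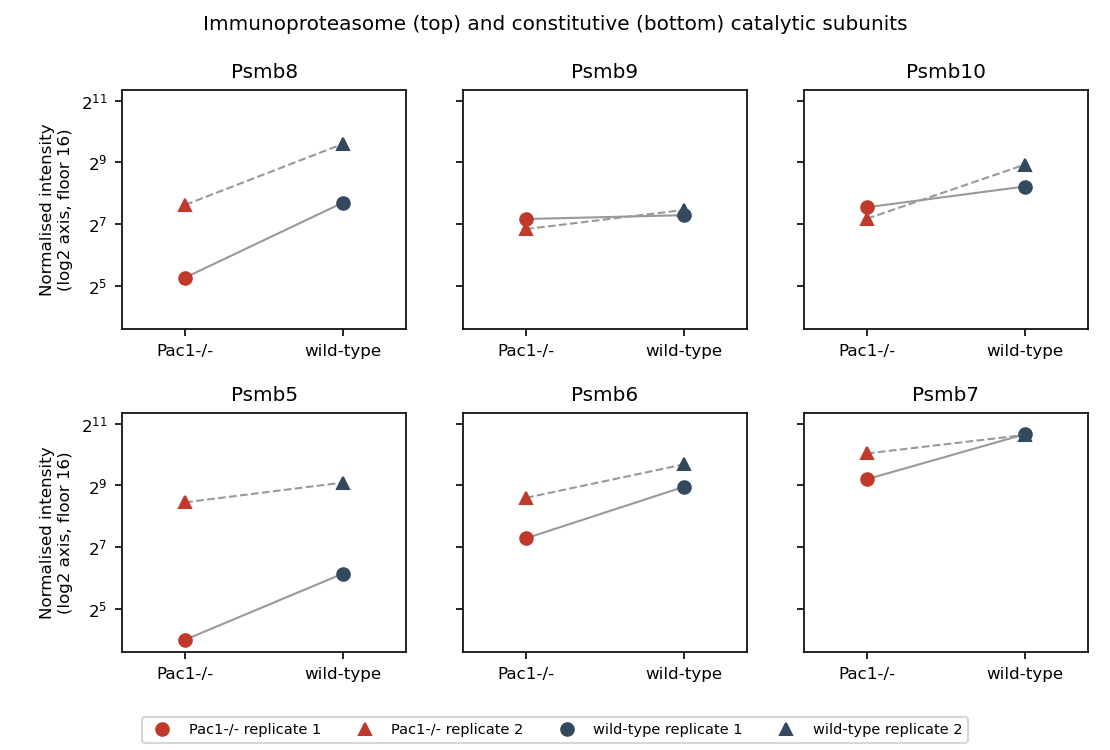
Normalised intensity on a log2 axis (floor 16) of the immunoproteasome subunits Psmb8, Psmb9 and Psmb10 (top) and the constitutive subunits they replace, Psmb5, Psmb6 and Psmb7 (bottom), in Pac1-/- cells (left) and wild-type cells (right). Lines join arrays of the same replicate number; all 12 lines are lower at the Pac1-/- end, and the replicate 1 line of Psmb9 is the flattest.

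Whether the balance between the immunoproteasome and the constitutive subunit differed between the genotypes was read from the log2 ratio of each pair within an array. The genotype difference of the Psmb10 to Psmb7 ratio was 0.78 within replicate 1 and -1.15 within replicate 2. That of Psmb9 to Psmb6 was 1.54 and 0.47, and on the values as deposited 1.44 and -0.072. That of Psmb8 to Psmb5 was -1.34 within replicate 2, and -1.48 there on the deposited values. Within replicate 1 it has no defined size or sign, since Psmb5 lay below the floor of 16 on the Pac1-/- array. The sign differed between the replicate numbers for Psmb10 to Psmb7, and on the deposited values for Psmb9 to Psmb6. With 2 arrays per genotype no exact permutation test of these ratios can reach 0.05.

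The promoters of the catalytic subunits are shown because each of these genes had a lower signal in Pac1-/- cells, though other subunits did too. They are RefSeq sequences of build GRCm38.p6, from 250 bases before to 50 bases after the start, with matches to TGANNNNGC in capitals. This pattern is a loose form of the core of the antioxidant response element, and not every match fits the stricter core. Through that element Nfe2l1 and Nfe2l2 act on proteasome genes.
Psmb8 (chr17:34197945-34198244, plus strand): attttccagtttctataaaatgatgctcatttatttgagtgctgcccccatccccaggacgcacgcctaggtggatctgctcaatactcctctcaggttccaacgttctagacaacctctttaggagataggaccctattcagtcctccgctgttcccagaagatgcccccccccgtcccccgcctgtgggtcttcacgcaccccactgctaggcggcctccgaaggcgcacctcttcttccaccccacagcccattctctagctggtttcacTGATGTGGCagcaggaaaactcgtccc
Psmb9 (chr17:34187281-34187580, minus strand): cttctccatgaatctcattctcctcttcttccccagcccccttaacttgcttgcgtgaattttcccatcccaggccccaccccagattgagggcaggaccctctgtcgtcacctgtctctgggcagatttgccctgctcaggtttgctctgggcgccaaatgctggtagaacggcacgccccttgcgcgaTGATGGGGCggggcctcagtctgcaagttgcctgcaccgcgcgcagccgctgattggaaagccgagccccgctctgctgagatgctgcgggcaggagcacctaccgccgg
Psmb5 (chr14:54617946-54618245, minus strand): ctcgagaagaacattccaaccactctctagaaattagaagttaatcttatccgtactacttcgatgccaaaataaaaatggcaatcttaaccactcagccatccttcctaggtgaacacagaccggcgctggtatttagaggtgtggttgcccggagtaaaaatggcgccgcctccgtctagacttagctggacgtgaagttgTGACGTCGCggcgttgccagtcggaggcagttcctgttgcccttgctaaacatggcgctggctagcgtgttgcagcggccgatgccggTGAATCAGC
Psmb6 (chr11:70525107-70525406, plus strand): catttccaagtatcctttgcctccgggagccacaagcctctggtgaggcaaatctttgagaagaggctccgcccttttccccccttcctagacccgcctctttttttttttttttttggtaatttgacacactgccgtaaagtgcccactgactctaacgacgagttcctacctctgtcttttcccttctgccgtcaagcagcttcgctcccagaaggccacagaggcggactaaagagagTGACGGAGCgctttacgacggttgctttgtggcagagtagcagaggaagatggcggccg
Psmb8 has its match after the start, Psmb9 and Psmb6 have theirs before it, and Psmb5 has 1 on either side. Psmb10 has none in this window, and Psmb7 is not among the sequences used. Promoters of 31 of the 38 genes, 33 in all, were matched by gene ID. TGANNNNGC, searched on both strands, is in 19 of these 33 (57.6%) and in 41.3% of 32851 promoters of the same length. By group it is in 5 of 8 core alpha, 4 of 4 constitutive beta, 2 of 3 immunoproteasome and 8 of 18 regulatory particle promoters. The core of the interferon-stimulated response element (GAAA, any 2 bases, GAAA) is in 3 of 33 (9.09%), those of Psmb3, Psmd4 and Psmd9, and in 3.44% of all. CCAAT is in 12 of 33 (36.4%) and in 37.4% of all. No matches of different motifs overlapped in the proteasome promoters. A match describes the letters in the window and is not a site of binding.

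The structural beta subunits, which have no protease site, showed no common direction. In Pac1-/- cells 2 of the 4 genes lay higher and 2 lower, and their median difference was -0.052. Psmb4 was the one whose genotypes did not overlap, at 1034 and 568 in Pac1-/- cells, against 1460.5 and 1407 in wild-type cells. Its log2 difference was -0.90 ± 0.47 (SE) (limma adjusted p = 0.866), but a second, dimmer probe set was at 0.66. Psmb1 read 783 and 1412 in Pac1-/- cells, against 1038 and 964 in wild-type cells and had a log2 difference of 0.071 ± 0.46 (SE) (limma adjusted p = 0.992). Psmb3 read 1152 and 1797 in Pac1-/- cells, against 1016 and 1359 in wild-type cells and had a log2 difference of 0.29 ± 0.44 (SE) (limma adjusted p = 0.915). In both the highest value was that of Pac1-/- replicate 2, and the genotypes overlapped. Without that array the log2 differences of Psmb1 and Psmb3 were -0.35 and -0.028. Psmb2 read 43.0 and 914 in Pac1-/- cells, against 45.0 and 1116 in wild-type cells. It was low on both replicate 1 arrays and high on both replicate 2 arrays, with a log2 difference of -0.18 ± 2.37 (SE) (limma adjusted p = 0.995).

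The core alpha subunits were split in direction as well. Of 7 tested genes 4 were higher and 3 lower in Pac1-/- cells, and 43.9% of all tested genes were lower. The median log2 difference was 0.048, against 0.11 over all tested genes, and the range was -0.92 to 0.39. All 7 read at least 183 on every array. Psma4 and Psma7 were lower in Pac1-/- cells without overlap, and Psma3 and Psma6 were higher without overlap, against 11.4% and 26.2% of all tested genes.

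Psma4 read 595 and 469 in Pac1-/- cells, against 1034 and 718 in wild-type cells. Its log2 difference was -0.70 ± 0.41 (SE) (limma adjusted p = 0.866), which became 0.011 with median centring, or -0.68 relative to all probe sets. Psma7 read 486 and 183 in Pac1-/- cells, against 606 and 525 in wild-type cells, the Pac1-/- replicate 2 array being the low one. Its log2 difference was -0.92 ± 0.62 (SE) (limma adjusted p = 0.866), and its second probe set was at -1.50. Psma6 read 1668 and 1896 in Pac1-/- cells, against 1449 and 1278 in wild-type cells. Both Pac1-/- arrays were above both wild-type arrays, with a log2 difference of 0.39 ± 0.35 (SE) (limma adjusted p = 0.875). The mean over its 4 probe sets was at -0.19. Psma3 read 1616 and 1725 in Pac1-/- cells, against 1534 and 1087 in wild-type cells, for a log2 difference of 0.37. Psma1 read 593 and 719 in Pac1-/- cells, against 673 and 593 in wild-type cells, Psma2 1131 and 1766 in Pac1-/- cells, against 1521 and 1458 in wild-type cells, and Psma5 809.6 and 825 in Pac1-/- cells, against 933 and 623 in wild-type cells. The genotypes overlapped in Psma1, Psma2 and Psma5, whose log2 differences were 0.048, -0.075 and 0.10.

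**Figure D3:**
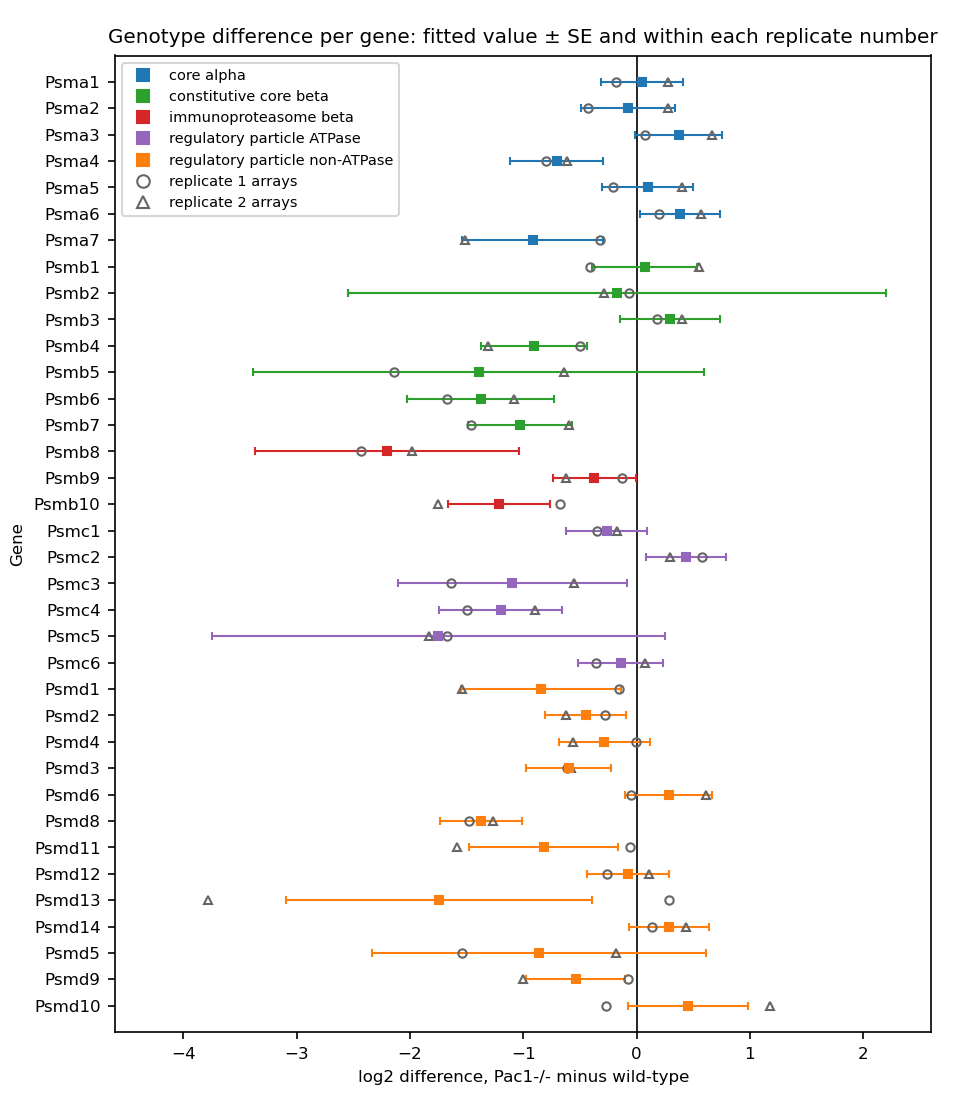
Log2 difference, Pac1-/- minus wild-type, of the 36 tested genes (squares, limma estimate ± SE, n = 2 per genotype), with the difference between the replicate 1 arrays (circles) and between the replicate 2 arrays (triangles). All 6 catalytic beta genes (Psmb5 to Psmb10) have both open symbols left of 0, and 26 of the 36 squares lie left of 0.

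The regulatory particle had more genes lower than higher in Pac1-/- cells, both among its ATPases and among its other subunits, and 1 gene in it passed the unadjusted test. It had 19 tested genes, 15 of them lower and 4 higher, and a median difference of -0.54 (-0.27 within replicate 1 and -0.56 within replicate 2). Over all tested genes 43.9% were lower. In 12 of the 19 the Pac1-/- array was the lower one within both replicate numbers, against 23.6%. The 1 unadjusted call, lower in Pac1-/- cells, compares with 30 of all 4998 tested genes. With median centring the medians were -0.0016 for the ATPases and -0.045 for the other subunits.

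The 6 ATPases form the ring that unfolds substrates. Their median log2 difference was -0.68, with 5 lower and 1 higher, and without Pac1-/- replicate 1 the median was 0.066. Psmc4 read 314 and 228 in Pac1-/- cells, against 888 and 425 in wild-type cells. The genotypes did not overlap, and the log2 difference was -1.20 ± 0.55 (SE) (95% confidence interval -2.76 to 0.36; limma adjusted p = 0.866). The mean over the probe sets of Psmc4 was at -0.40. Psmc3 read 91.7 and 451 in Pac1-/- cells, against 286 and 661 in wild-type cells. The replicate 1 arrays were the lower ones and the genotypes overlapped. Its log2 difference was -1.10 ± 1.01 (SE) (limma adjusted p = 0.875), and without Pac1-/- replicate 1 it was 0.053. Psmc5 read 18.4 and 242 in Pac1-/- cells, against 58.9 and 859 in wild-type cells. It was low on both replicate 1 arrays, and the log2 difference was -1.75, with -1.67 within replicate 1 and -1.83 within replicate 2. Psmc2 read 1375 and 1127 in Pac1-/- cells, against 923 and 916 in wild-type cells. By the brightest probe sets it was the only ATPase gene that was higher, at 0.44 ± 0.36 (SE) (limma adjusted p = 0.866). Psmc1 read 193 and 232 in Pac1-/- cells, against 246 and 262 in wild-type cells, at -0.26. Psmc6 read 716 and 969 in Pac1-/- cells, against 917 and 917 in wild-type cells, at -0.14, and its genotypes overlapped. On the deposited values this probe set was at 0.0049. A dimmer Psmc6 probe set was higher without overlap, at 0.73. It read 224 and 252 in Pac1-/- cells, against 174 and 118 in wild-type cells.

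In the lid, which removes the ubiquitin chain, 5 of 7 tested genes were lower in Pac1-/- cells. Psmd8 had the lowest p of all the subunits, with values of 399 and 371 in Pac1-/- cells, against 1113 and 896 in wild-type cells. The replicates of a genotype were close and the genotypes far apart, for a log2 difference of -1.38 ± 0.36 (SE) (95% confidence interval -2.41 to -0.34; limma adjusted p = 0.866). The difference was -1.48 within replicate 1 and -1.27 within replicate 2. Of the alternatives, only the other scalings and leaving out an array moved the fitted value, to between -1.53 and -0.67. Psmd8 has 1 probe set on the array, so no second one bears on this value.

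Psmd13 read 350.2 and 30.7 in Pac1-/- cells, against 286 and 422 in wild-type cells. The Pac1-/- replicate 2 array alone was low. The log2 difference of Psmd13 was -1.74 ± 1.35 (SE) (limma adjusted p = 0.866), and without that array 0.011. Psmd3 read 163 and 134 in Pac1-/- cells, against 249 and 199.6 in wild-type cells. The genotypes did not overlap, with a log2 difference of -0.60 ± 0.38 (SE) (limma adjusted p = 0.866). Psmd11 read 1652 and 576 in Pac1-/- cells, against 1717 and 1728 in wild-type cells, again with Pac1-/- replicate 2 alone far down, for a log2 difference of -0.82. By their brightest probe sets, the other lid genes differed by 0.29 log2 units or less. Psmd14, the deubiquitinase of the lid, read 1172 and 1418 in Pac1-/- cells, against 1064 and 1047 in wild-type cells, without overlap, at 0.29. Psmd6 read 896 and 1227 in Pac1-/- cells, against 926 and 802 in wild-type cells, at 0.28. A dimmer Psmd6 probe set read 526 and 292 in Pac1-/- cells, against 398 and 53.1 in wild-type cells, at 1.43. Psmd12 read 346 and 428 in Pac1-/- cells, against 414 and 396 in wild-type cells, at -0.075.

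The 3 non-ATPase subunits of the base were each lower in Pac1-/- cells within both replicate numbers, against 23.6% of all tested genes. For Psmd4 the replicate 1 difference was only -0.0061. On the deposited values Psmd4 was higher there, at 695.5 in Pac1-/- cells against 681.6 in wild-type cells. Psmd2, a large scaffold subunit, read 749 and 610.5 in Pac1-/- cells, against 906 and 941 in wild-type cells, without overlap. Its log2 difference was -0.45 ± 0.36 (SE) (limma adjusted p = 0.866). Psmd1, its counterpart, read 468 and 148 in Pac1-/- cells, against 519.5 and 429 in wild-type cells, with Pac1-/- replicate 2 the low array, at -0.84 ± 0.71 (SE) (limma adjusted p = 0.871). Psmd4, a receptor for ubiquitin chains, read 706 and 710.4 in Pac1-/- cells, against 709 and 1048 in wild-type cells, at -0.28 ± 0.40 (SE) (limma adjusted p = 0.909). With median centring Psmd2 and Psmd4 were at 0.29 and 0.47, or -0.40 and -0.22 relative to all probe sets. The 3 assembly chaperones of the base differed among themselves. Psmd9 read 98.7 and 84.4 in Pac1-/- cells, against 104 and 169 in wild-type cells, at -0.54. Psmd5 read 45.4 and 465 in Pac1-/- cells, against 132 and 526 in wild-type cells, at -0.86, and Psmd10 read 90.6 and 183 in Pac1-/- cells, against 109 and 80.8 in wild-type cells, at 0.46. All 3 read below 100 on at least 1 array, so these sizes are approximate.

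Over all 36 tested genes, 26 had a fitted difference below 0 and 10 above it, against 43.9% and 56.1% of all tested genes. In 22 genes the Pac1-/- array was the lower one within both replicate numbers, against 23.6%, and in 5 it was the higher one, against 36.1%. In 15 the genotypes did not overlap with Pac1-/- lower, against 11.4%, and in 4 with Pac1-/- higher, against 26.2%. The median log2 difference was -0.49, against 0.11 over all tested genes, with -0.30 within replicate 1 and -0.57 within replicate 2. With median centring, where the median of all tested probe sets was 0.69, 17 of the 36 genes had a fitted difference below 0, against 20.2% of all tested genes. With that centring 7 were lower within both replicate numbers, against 9.21%, and 12 were higher, against 61.3%. Without Pac1-/- replicate 2 there were 29 of 36 genes below 0, and without Pac1-/- replicate 1 there were 18, against 41.0% and 39.4% of all tested genes. These counts describe genes that share arrays and are no test of the group.

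**Figure D4:**
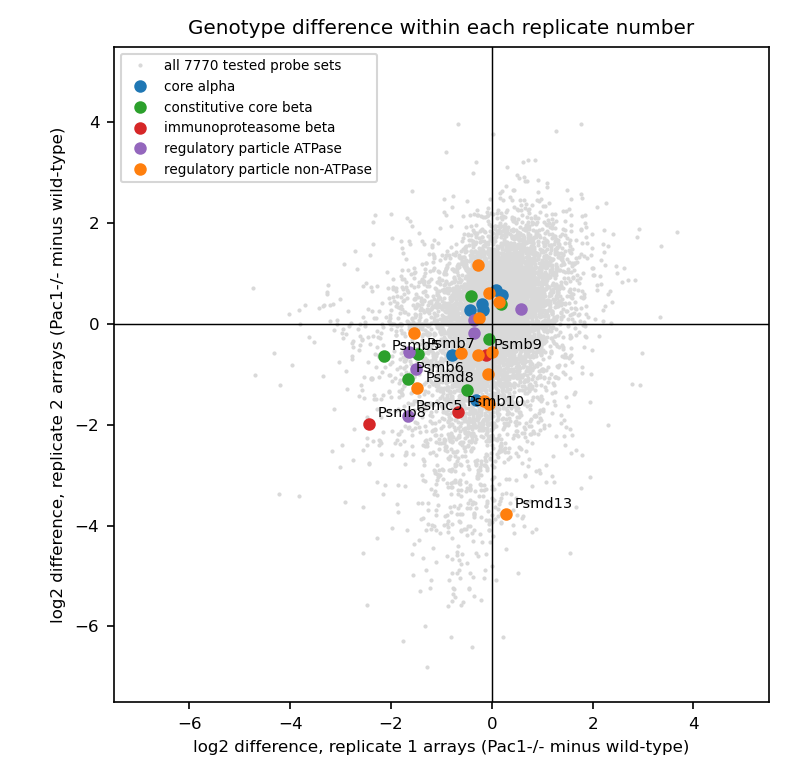
Log2 difference, Pac1-/- minus wild-type, between the replicate 1 arrays (x axis) and between the replicate 2 arrays (y axis), for the 36 tested proteasome genes (coloured by group) and all 7770 tested probe sets (grey). The lower left part holds 22 of the 36 genes, all 6 catalytic beta genes among them, and Psmd13 is far down on the replicate 2 arrays alone.

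Over the 36 genes together the replicate numbers differed more than the genotypes. Of their sum of squares, 65.2% lay between the replicate numbers and 26.0% between the genotypes. In the immunoproteasome genes these shares were 40.0% and 56.5%, and in the core alpha genes 30.2% and 47.7%. In the constitutive beta genes they were 83.6% and 13.5%, and in the ATPases 73.8% and 24.3%. In the other 13 regulatory particle genes they were 42.9% and 31.8%. The remainder was largest in those 13 genes, at 25.4%, followed by the core alpha genes at 22.0%. A difference of over 4-fold between the replicate numbers, in the same direction in both genotypes, was found in 5 of 49 proteasome probe sets, against 11.5% of all. These 5 were probe sets of Psmb2, Psmb3, Psmb5, Psmc2 and Psmc5, each lower on the replicate 1 arrays.

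Other probe sets of the same gene did not always share these differences. The dimmer Psmc2 probe set read 78.8 and 576 in Pac1-/- cells, against 69.3 and 654 in wild-type cells, a split by replicate number that the brighter one does not have. The dimmer Psmb3 probe set read 21.9 and 228 in Pac1-/- cells, against 42.0 and 639 in wild-type cells, while the brighter one was at least 1016 on all 4 arrays. Of 11 genes with several tested probe sets, 5 had the same sign of the genotype difference in all of them. Over all 1468 such genes on the array 50.8% had the same sign in their 2 brightest. The 4 tested probe sets of Psmd11 ranged from -2.41 to 0.30, so its direction depends on the probe set. The lowest of these read 49.8 and 29.5 in Pac1-/- cells, against 333 and 125 in wild-type cells. For Psma7, Psmd13, Psma6, Psmd6 and Psmc2 the tested probe sets shared a sign. The dimmer Psmc2 probe set was even, however, at 0.00089, with 0.18 within replicate 1 and -0.18 within replicate 2. Psmb5 to Psmb10 and Psmd8 have 1 probe set each.

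**Figure D5:**
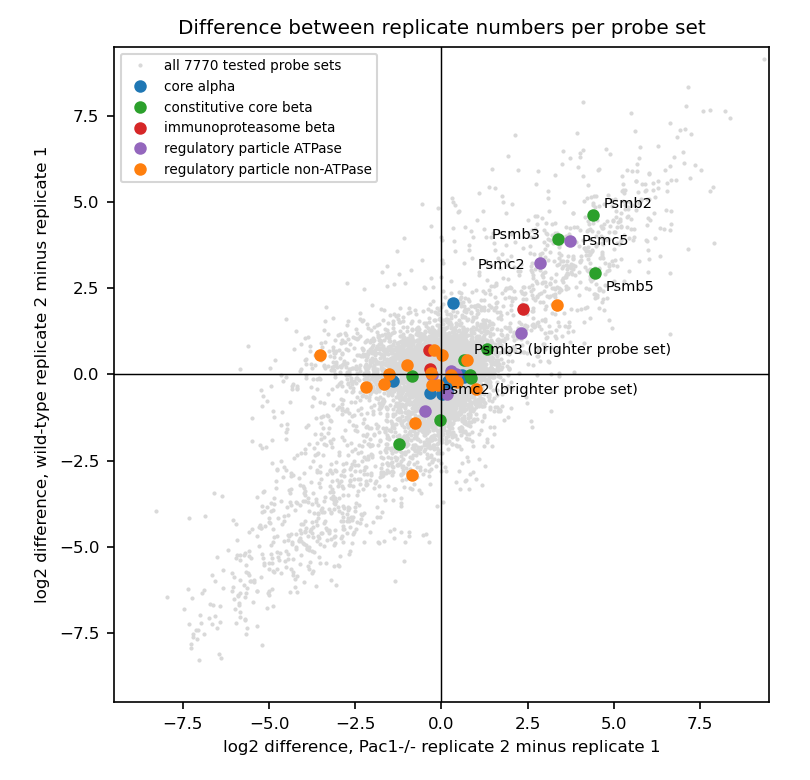
Log2 difference between replicate 2 and replicate 1 in Pac1-/- cells (x axis) and in wild-type cells (y axis), for 49 tested proteasome probe sets (coloured by group) and all 7770 (grey). The 5 probe sets named at the upper right are over 4-fold higher on the replicate 2 arrays in both genotypes, while the brighter Psmc2 and Psmb3 probe sets lie near the origin.

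Genes that work with the proteasome were taken from 5 lists, and none of their members passed limma's adjusted or unadjusted test. Their counts stand beside 56.1% of all tested genes higher and 43.9% lower in Pac1-/- cells, and 26.2% higher and 11.4% lower without overlap. Among activators, inhibitors and assembly factors 16 were tested. In Pac1-/- cells 10 of these lay higher and 6 lower, around a median of 0.062. Pomp, the chaperone that places the beta subunits and is also called proteassemblin, read 626 and 551 in Pac1-/- cells, against 915 and 978 in wild-type cells. It was lower without overlap, at -0.69. Psme4, an activator cap, was higher without overlap at 419 and 450.3 in Pac1-/- cells, against 207 and 281 in wild-type cells, a log2 difference of 0.85. Akirin2, which carries proteasomes into the nucleus, was also higher, at 0.80. The difference of Psme1, a subunit of the cap induced by interferon, was 0.059.

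Peptide loading and MHC class I gave 9 tested genes, 7 lower and 2 higher, around a median of -0.52. Tap1, the peptide transporter subunit encoded next to Psmb9 in the MHC, read 143 and 186 in Pac1-/- cells, against 59.7 and 108 in wild-type cells. It was higher without overlap, at 1.02, the opposite side from its neighbours Psmb9 and Psmb8. Pdia3 and Calr, chaperones of class I assembly, were at -0.62 and -0.52, both lower without overlap. The class I light chain gene B2m read 93.0 and 6577 in Pac1-/- cells, against 123 and 5765 in wild-type cells, a split by replicate number and not by genotype. Of 9 listed inducers of immunoproteasome genes 4 were tested, and all 4 were higher, with a median of 0.44. Ifngr1, a chain of the interferon gamma receptor, was at 0.79, Jak2, the kinase bound to that receptor, at 0.65, and Jak1 at 0.23.

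In the list around Nfe2l1, the factor that raises proteasome genes when degradation is impaired, 3 of 6 tested genes were lower and the median was 0.0038. Nfe2l1 itself read 245 and 160.3 in Pac1-/- cells, against 269.7 and 544 in wild-type cells. It was lower without overlap, at -0.95, the wild-type replicate 2 array being the high one. Nfe2l2 was higher without overlap at 0.69, and Ngly1, which processes Nfe2l1, was at 0.42. Ubiquitin supply and shuttling gave 7 tested genes, 4 lower and 3 higher, around a median of -0.19. Vcp, the segregase that hands substrates to the proteasome, read 1337 and 677 in Pac1-/- cells, against 1502 and 2107 in wild-type cells, at -0.90. Its cofactor gene Nsfl1c was at -1.21 and the shuttle factor Ubqln2 at 1.01.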

How the data were processed

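Affymetrix mouse 430A arrays had been hybridised with biotinylated cRNA of 4 mast cell cultures, made from 500 to 1000 ng of total RNA per the labels' protocols. The authors deposited probe set intensity on a linear scale, from MAS5 as the processing notes of the submitters state; the series' design text describes RMA values instead, which were not used here. The 22690 probe sets held 64 controls, which were dropped. Of the rest, 20380 have 1 symbol in the annotation, 691 several and 1555 none.

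Quantile normalisation of the 4 arrays was followed by a floor of 16 and log2. The 7770 probe sets with a mean of at least 100 entered limma 3.58.1 in R 4.3.3 (lmFit, then eBayes) with a genotype term alone. P-values are two-sided, were adjusted over all these probe sets by Benjamini-Hochberg, and have a threshold of 0.05. The fit has 2 residual and 1.71 prior degrees of freedom. It was tested on simulated data, where it recovered the changed probe sets with the spread between replicates scaled to 0.1 of the real one and did not recover them at the full spread. The deposited values carry no detection call and the number of arrays limits precision. Per the design text the cultures were independent. The replicate numbers are shared between the genotypes but the labels give no pairing.

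Full statistics were given for the 6 catalytic genes, for the 3 genes with the lowest p in each of core alpha, structural beta, ATPase, lid and base, and for genes at an unadjusted p under 0.05; 21 genes in all. The members, lists and rule were chosen with earlier results of these data known. The 4-fold limit, the dimmer Psmb3, Psmc2, Psmc6, Psmd6 and Psmd11 probe sets and the motifs were chosen after the values were seen. The alternatives were other scalings, minimums, a floor of 64, an intensity trend, a replicate block, leaving out each array, and other choices of probe set. Figures were drawn with matplotlib 3.10.9.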

Additional observations from a re-analysis of the deposited data

How the results depend on the processing

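No proteasome probe set and no other probe set passed limma's adjusted test under any of the 12 alternatives that refit the whole table. Unadjusted calls moved. There was 1 proteasome probe set, in place of 2, with median centring, a minimum of 200, adjustment ahead of the minimum, a floor of 64 and an intensity trend, and 0 to 5 with an array left out (5 without Pac1-/- replicate 1, 0 without Pac1-/- replicate 2). Over all probe sets there were 1762 with no minimum, 110 with a minimum of 200, 666 with adjustment ahead of the minimum and 79 to 408 with an array left out, in place of 263. With the replicate block, although no label pairs the cultures, 11 of 49 proteasome probe sets passed unadjusted, 10 lower and 1 higher, against 899 (11.6%) of all, 571 lower and 328 higher; the lowest adjusted p was 0.371. Among the 11 were Psmb5, Psmb6, Psmb8, Psmb10, Psmc4, Psmc5 and Psmd8.

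Median centring raised the median of all probe sets to 0.69 and the group medians to 0.79 for core alpha, -0.16 for constitutive beta, -0.66 for immunoproteasome, -0.0016 for ATPase and -0.045 for non-ATPase genes; in place of 26 subunit genes 17 were below 0, and 7 subunit and 3 catalytic genes, in place of 22 and 6, were lower within both replicate numbers. It put Psma4 at 0.011, Psmb9 at 0.055, Psmd2 at 0.29 and Psmd4 at 0.47, above 0. The constitutive beta median was also -0.78 as deposited, -0.39 with a floor of 64 and -0.46 with the mean over the probe sets of a gene, which put the ATPase median at -0.26, Psma6 at -0.19 and Psmb3 at -0.46. With an array left out the medians lay between -0.11 and 0.19 for core alpha, -1.45 and 0.50 for constitutive beta, -1.57 and -0.86 for immunoproteasome, -0.68 and 0.066 for ATPase and -0.60 and -0.18 for non-ATPase genes. The subunit genes below 0 then numbered 18 to 29, and the catalytic ones 5 to 6. With an array left out, Psmb1 lay between -0.35 and 0.50, Psmb3 lay between -0.028 and 0.61, Psmb5 lay between -3.62 and 0.83, Psmc3 lay between -2.24 and 0.053 and Psmd13 lay between -3.50 and 0.011. The lone array of a genotype is then assumed to vary like the other genotype's. The sign turned without Pac1-/- replicate 2 for Psmb1, Psmb3 and Psmd13, without Pac1-/- replicate 1 for Psmc3 and Psmb5, and without wild-type replicate 2 for Psmb5. Psmb6, Psmb7, Psmb8, Psmb10, Psmb4, Psma7, Psmc4, Psmd1, Psmd3 and Psmd8 stayed lower in Pac1-/- cells under every alternative that tested them. Psmc2 stayed higher, between 0.00089 and 1.20. The minimums, the intensity trend and the replicate block cannot change a log2 difference, however. For a gene with 1 probe set the choice of probe set cannot either. The counts of genes below 0 under the alternatives were added after seeing the data. The cause of these shifts was not tested. Psmb9 and Psmd3 have no value with a minimum of 200. Values near the floor of 16 have no exact size.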
